A study of Arabidopsis thaliana with 53 samples.

Results

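Families 1A_14 and 1A_20 are the 2 groups of Arabidopsis thaliana plants that both carry the BR-like dwarf phenotype, a compact habit that resembles brassinosteroid mutants. The comparison used 3 leaf libraries of 1A_14 (plants 1A_14_15, 1A_14_25 and 1A_14_5) and 3 of 1A_20 (plants 1A_20_5, 1A_20_6 and 1A_20_8), which were taken by the plant names in the sample labels and make up 6 of the 53 libraries of the series. All 6 were M3 plants descended by selfing from 1 M1 plant, line 1A. That M1 plant was itself raised as a seedling on medium with 160 µM etoposide, an inhibitor of topoisomerase II that leaves DNA double-strand breaks. The 4 relatives of family 1A_4 descend from the same M1 plant, were labelled M3 and lacked the phenotype. The 9 DMSO plants, labelled M2, descend from 3 lines raised on the solvent alone (C13, C23 and C4, with 3 plants each). All plants were grown under long days in a growth chamber, and 1 leaf RNA library was made per plant.

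Each family is a set of 3 plants from 1 M2 parent. Family, any change carried by only 1 of the M2 parents, and the place and moment of growth and harvest cannot be told apart here. Values of RNA per leaf also do not separate fewer cells of a type from less RNA per cell.

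Dwarf plants of line 1A carry an inversion on chromosome 2 that reaches the gene Asymmetric leaves 1 (AS1). AS1 is a MYB-type repressor that keeps class I KNOX homeobox genes silent in leaves. KNOX genes maintain the shoot meristem, and the boundary genes BOP, LOB and CUC mark the junctions between organs and meristem. Mature leaves also adjust many genes to sugar supply, mechanical stimulation, phosphate and light within hours, through regulators such as the SnRK1 kinase, calmodulin-like proteins, SPX proteins and the circadian clock.

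Total estimated counts were 46596785 to 56126567 in 1A_14, 41982793 to 49843010 in 1A_20, 38571042 to 56377464 in relatives and 40099331 to 116654254 in DMSO plants. Levels are given as CPM, counts scaled to a common library total after TMM scaling, for each plant in the order listed above. Across all genes, log-CPM values correlated at 0.974 to 0.986 within 1A_14 and at 0.986 between 1A_20_6 and 1A_20_8, and at 0.975 between 1A_20_5 and either of them (genes within a library are not independent replicates). The lowest pair within 1A_14 was 1A_14_15 and 1A_14_25, at 0.9741, but 1A_14_15 reached 0.984 with 1A_14_5. Each plant of that pair correlated slightly more with a relative than with the other. The values were 0.9772 for 1A_14_15 with 1A_4_11 and 0.975 for 1A_14_25 with 1A_4_16. Across the families, 1A_20_6 and 1A_20_8 correlated with 1A_14_5 at 0.9778 and 0.9765. These values were slightly above those with their own sib 1A_20_5, at 0.9753 and 0.9748. Plant 1A_20_5 stood apart in the KNOX and boundary genes. Its AS1 level was as low as in the rest of the dwarfs, yet STM, BOP1 and LOB, which the other 5 plants expressed, had no count in it (a count of 0 allows up to 3 counts, or 0.0758 CPM, in this library). Whether its tissue or label differs was not tested. Results are therefore given with and without 1A_20_5 where it changes them.

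Of 19546 genes tested, 211 were differentially expressed between the families, or 1.08% (edgeR's quasi-likelihood test with a Benjamini-Hochberg adjusted p under 0.01 and a change of over 1 on the log2 scale in either direction). Of these, 150 were higher in 1A_20 (0.767% of genes tested) and 61 were higher in 1A_14 (0.312%). At an unadjusted p below 0.05 there were 3112 genes (15.9%). The values of the families did not overlap in 210 of the 211 genes, against 24.9% of all genes tested. The 211 were selected on these same values, so that the lack of overlap follows largely from the selection. The genes described below as higher in 1A_20 include sugar starvation, trehalose phosphate, touch and cell wall genes. Those higher in 1A_14 include phosphate starvation genes, light regulators and 1 cold regulator, DREB1A.

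The count depended on how the spread between plants was estimated. The fit gave each DMSO line its own mean. When the 9 DMSO plants were treated as 1 group, so that differences between DMSO lines counted as spread, edgeR called 0 genes. In that fit 2138 genes had an unadjusted p under 0.05 and 84 an adjusted p under 0.05, and DESeq2, run with separate lines, called 470. With the lines pooled, all 211 genes kept their direction and 208 had an unadjusted p below 0.05. Pooling leaves the values of the families as they are, and the 211 were selected on those values. Neither number is therefore a check on the calls. With the 6 dwarf plants alone 68 genes were called, of which 55 were among the 211, and with the 10 plants of line 1A 82 were called, of which 76 were. Each dwarf plant weighed on the number. It was 88, 56 and 130 without 1A_14_15, 1A_14_25 and 1A_14_5, and 129, 126 and 113 without 1A_20_5, 1A_20_6 and 1A_20_8. Of the 129 genes without 1A_20_5 (0.66% of 19535 tested), 111 were among the 211. Without DMSO C13 replicate 2 the number called was 281. Of the 211, 49 held through the omission of any 1 of the 19 libraries, and 32 of them were also called by DESeq2, with the 6 dwarf plants alone and with line 1A alone. In simulated data with these libraries, edgeR recovered 65.7%, 71.6% and 83.3% of the genes given log2 folds of 1.5, 2 and 4. It called 1 unchanged gene there. How often unchanged genes are called where lines differ, as the DMSO lines do, was not tested.

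**Figure D1:**
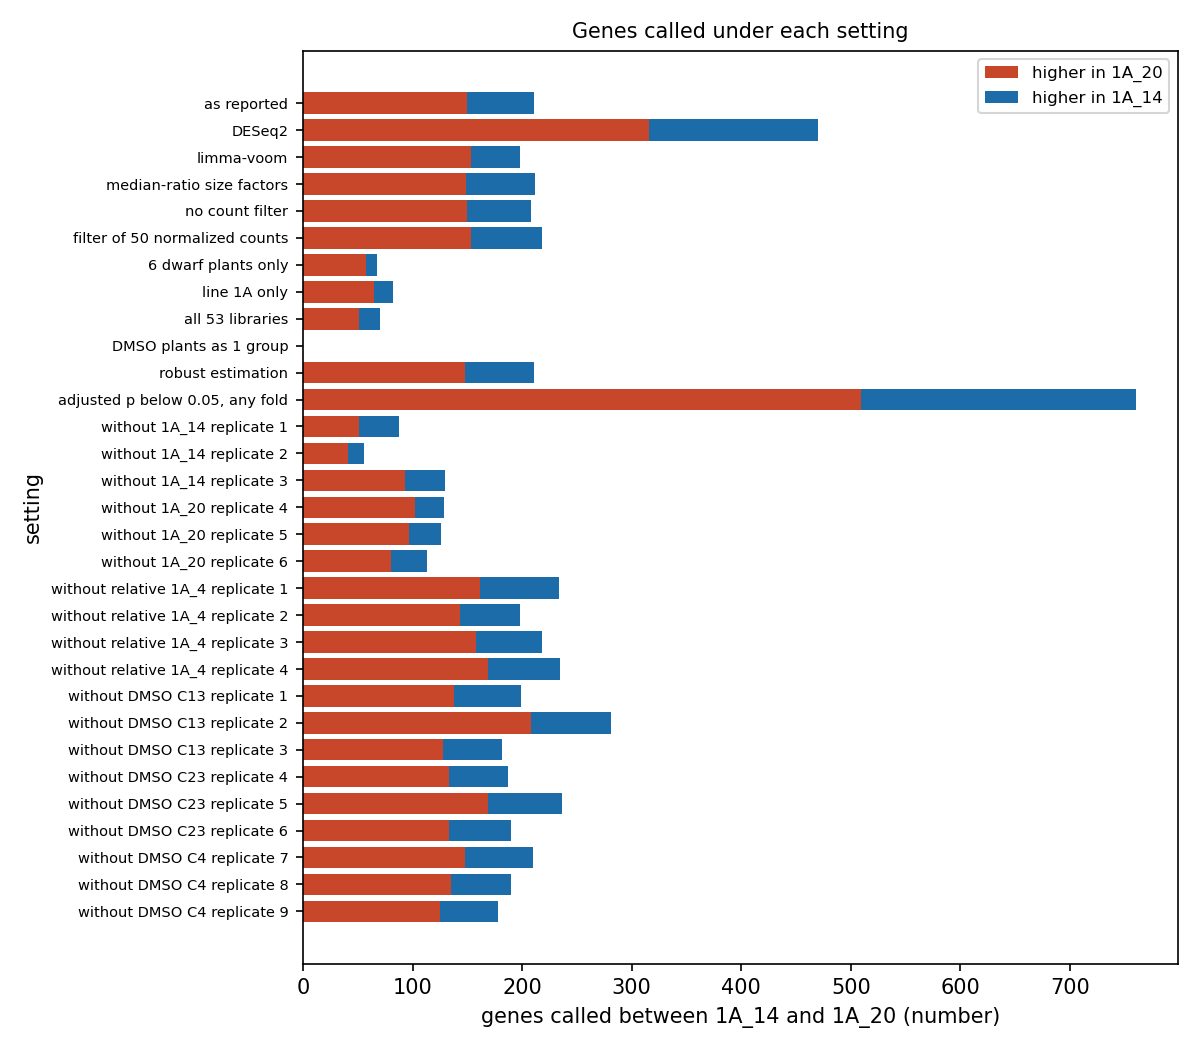
Number of genes called between families 1A_14 and 1A_20 (horizontal axis) under each setting of the test (vertical axis), split into genes higher in 1A_20 (red) and higher in 1A_14 (blue). The number was 211 as reported, 470 with DESeq2, 56 to 130 without one of the 6 dwarf plants, and 0 with the DMSO plants as 1 group.

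Several genes of sugar and energy supply were higher in 1A_20. DARK INDUCIBLE 10 (DIN10; AT5G20250, chromosome 5, 6833564 to 6836862 in TAIR10.1), a raffinose synthase family gene induced in darkness and by sugar depletion, had 42.7, 62.1 and 56.1 CPM in 1A_14 and 892, 778 and 874 CPM in 1A_20. Every 1A_20 plant exceeded every relative (39.7 to 159.5 CPM) and every DMSO plant (34.6 to 325 CPM), and the families differed 15.8-fold (log2 fold change of 1A_14 over 1A_20 -3.98 ± 0.429 (SE), adjusted p = 0.000131 by edgeR). BXL1 (AT5G49360), a beta-xylosidase of the cell wall that is also induced by sugar depletion, had 24.5, 40.6 and 47.2 CPM in 1A_14 and 333, 501 and 615 CPM in 1A_20, with 10.3 to 49.5 CPM in relatives. The log2 fold change was -3.69 ± 0.498 (SE, adjusted p = 0.000655 by edgeR).

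The sugar transporter STP1 (AT1G11260), a plasma membrane monosaccharide-proton symporter that is repressed by sugar, had 63.0, 44.1 and 77.0 CPM in 1A_14 and 546, 642 and 618 CPM in 1A_20. Relatives lay between the families, at 79.6 to 184 CPM, and DMSO plants ranged from 44.5 to 620.1 CPM, so that 1 of the 3 plants of 1A_20 lay above every control and the others within their range. The difference was 9.81-fold (log2 fold change -3.29 ± 0.321 (SE), adjusted p = 7.57e-05 by edgeR). ERD5 (AT3G30775), the proline dehydrogenase that breaks down proline in mitochondria, had 4.89, 6.18 and 7.96 CPM in 1A_14 against 37.3, 38.4 and 58.8 CPM in 1A_20 (log2 fold change -2.82 ± 0.362 (SE), adjusted p = 0.000478 by edgeR).

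Regulators of energy signalling were also among the genes higher in 1A_20. bZIP1 (AT5G49450), a transcription factor of the low-energy response, had 5.74, 7.64 and 7.34 CPM in 1A_14 and 11.6, 30.6 and 43.5 CPM in 1A_20, where 1A_20_5 was the lowest plant (log2 fold change -2.05 ± 0.396 (SE), adjusted p = 0.00688 by edgeR, called in 10 of 19 fits that left out 1 library). AKINBETA1 (AT5G21170), a regulatory subunit of SnRK1, had 24.2, 22.6 and 38.7 CPM in 1A_14 and 58.2, 81.8 and 102 CPM in 1A_20 (log2 fold change -1.5 ± 0.261 (SE), adjusted p = 0.00353 by edgeR, called in 15 of 19 such fits). ATG8E (AT2G45170), which encodes a ubiquitin-like protein that builds autophagosomes, had 17.2, 22.2 and 26.4 CPM in 1A_14 and 54.3, 63.8 and 83.3 CPM in 1A_20 (log2 fold change -1.61 ± 0.187 (SE), adjusted p = 0.000216 by edgeR). It was 1 called gene of the 9 ATG8 genes, whose median log2 fold change was -0.21, and over all genes 1.08% were called.

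Over a list of 16 sugar starvation and amino acid breakdown genes, 5 were called, all higher in 1A_20, and 12 of 16 had an unadjusted p below 0.05 in that direction, against 1.08% and 15.9% of all genes in either direction. Without 1A_20_5, 6 were called. The median log2 fold change was -0.85, and -1.28 without 1A_20_5, against 0.01 over all genes tested. The list was drawn up after the values were seen and includes DIN10 and BXL1, so that its count is a description. ASN1 (AT3G47340), the dark-inducible asparagine synthetase, was not called. It had 1.82, 3.02 and 9.04 CPM in 1A_14 and 4.70, 55.9 and 53.9 CPM in 1A_20, and its adjusted p by edgeR was 0.103. SEN1 (AT4G35770), the senescence and darkness marker DIN1, was not called either, with 5.78, 18.5 and 20.4 CPM against 16.1, 73.9 and 86.8 CPM (adjusted p = 0.18 by edgeR). For both genes 1A_20_5 lay far below 1A_20_6 and 1A_20_8 and within the range of 1A_14.

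The class II trehalose phosphate synthase genes TPS5 to TPS11 encode proteins of the trehalose 6-phosphate pathway, through which plants sense sucrose. In this family of 7 genes, also examined after the values were seen, the values of 1A_14 and 1A_20 did not overlap in any of the 7, against 24.9% of all genes without overlap. TPS8, TPS9 and TPS11 were called, or 42.9% against 1.08% of all genes in either direction. TPS11 (AT2G18700) had 16.4, 24.6 and 17.64 CPM in 1A_14 and 87.7, 105 and 138 CPM in 1A_20 (log2 fold change -2.49 ± 0.335 (SE), adjusted p = 0.000624 by edgeR). TPS8 (AT1G70290) had 39.9, 65.7 and 72.8 CPM against 193, 238 and 240.3 CPM (log2 fold change -1.91 ± 0.276 (SE), adjusted p = 0.00108 by edgeR).

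TPS9 (AT1G23870) had a lower level, with 7.12, 9.73 and 13.2 CPM in 1A_14 and 29.5, 47.6 and 56.1 CPM in 1A_20 (log2 fold change -2.15 ± 0.335 (SE), adjusted p = 0.0018 by edgeR), and it was not called without 1A_14_15 or 1A_14_25. TPS5 (AT4G17770) went the other way, with 51.9, 52.6 and 54.6 CPM in 1A_14 and 26.3, 30.6 and 29 CPM in 1A_20. Its log2 fold change of 0.89 ± 0.140 (SE) had an adjusted p of 0.00195 by edgeR and lay below the fold threshold.

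BT2 and BT4 are BTB and TAZ domain scaffold proteins that respond to sugar, nitrogen and hormones. BT2 (AT3G48360) had 192, 200.2 and 217 CPM in 1A_14 and 769, 868 and 1083 CPM in 1A_20, with relatives at 421 to 714 CPM between them. It was lower in 1A_14 than in relatives by edgeR (log2 fold change -1.40, adjusted p = 0.00743), whereas the log2 fold change of 1A_20 over relatives, 0.76, was not called (adjusted p = 0.0282). BT4 (AT5G67480) had 90.3, 78.1 and 120.4 CPM in 1A_14 and 458, 473 and 487 CPM in 1A_20, above all relatives (107 to 169 CPM) and DMSO plants (95.1 to 290.2 CPM). Of the 5 BT genes, 2 were called, and the median log2 fold change was -1.80. Of 7 STP genes tested, STP1 was the 1 called, with a median of -0.59. Both families were examined after the values were seen, and over all genes 1.08% were called in either direction. BGAL1 (AT3G13750), a beta-galactosidase, and SIP2 (AT3G57520), a raffinose-family hydrolase, were also called with each library left out, with log2 fold changes of -2.50 ± 0.321 (SE) and -2.40 ± 0.343 (SE) and adjusted p of 0.000478 and 0.00105 by edgeR.

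**Figure D2:**
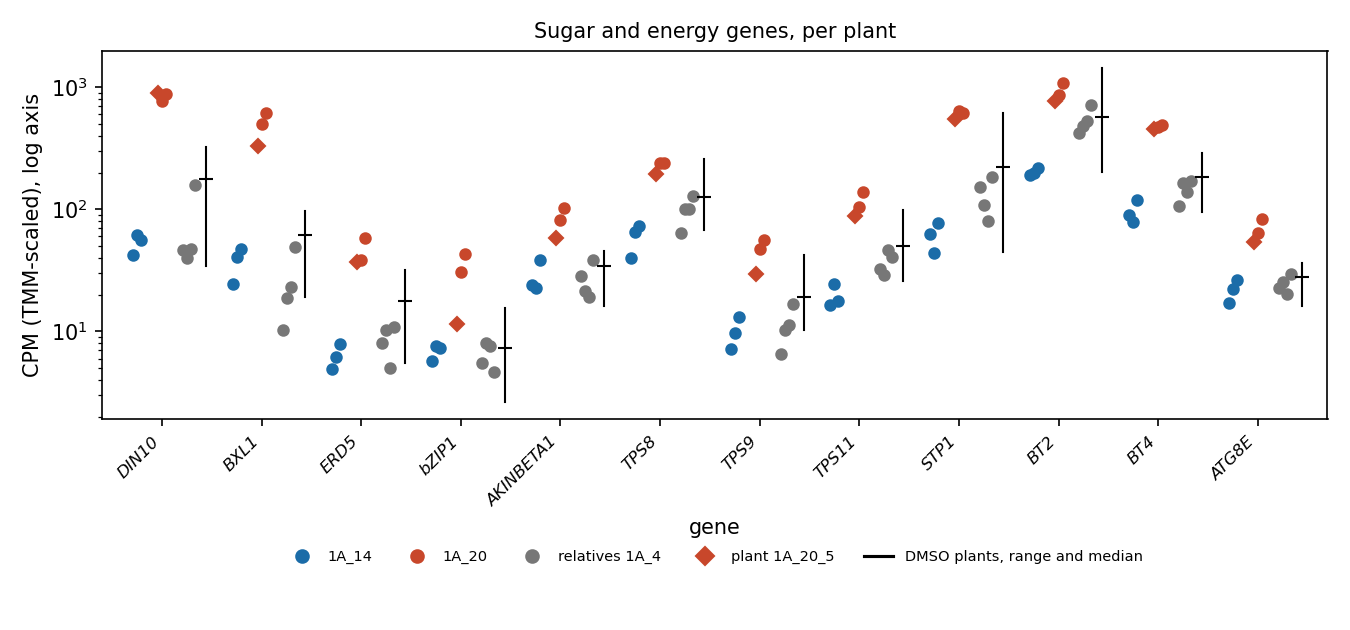
CPM on a log axis (vertical) of 12 genes of sugar and energy supply (horizontal) in each plant of 1A_14 (blue), 1A_20 (red, with 1A_20_5 as a diamond) and relatives 1A_4 (grey), with the range and median of the 9 DMSO plants as a black bar. In all 12 genes the 3 plants of 1A_20 lie above the 3 of 1A_14, and DIN10 ranges from 778 to 892 CPM in 1A_20.

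Touch, growth and cell wall genes included the named genes with the largest fold changes among those called, PHI-1 and TCH4. PHOSPHATE-INDUCED 1 (PHI-1; AT1G35140), an EXORDIUM family gene linked to brassinosteroid-dependent growth, had 0.13, 0.287 and 0.055 CPM in 1A_14 and 130.4, 60.2 and 35.9 CPM in 1A_20. Relatives had 0 to 2.92 CPM, but DMSO plants ranged from 0.0721 to 72.3 CPM, a range that covers the gap between the families and overlaps both. The log2 fold change was -8.89 ± 1.36 (SE, adjusted p = 0.00164 by edgeR). PHI-1 was called without 1A_20_5 (-8.23, adjusted p = 0.00459) and was lost with any 1 of the 1A_14 plants left out, at an adjusted p of up to 0.013 by edgeR.

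TCH4 (AT5G57560, chromosome 5, 23307006 to 23308680 in TAIR10.1), a xyloglucan endotransglucosylase that is induced by touch and by brassinosteroid, had 2.19, 2.47 and 2.13 CPM in 1A_14 and 256, 129 and 127 CPM in 1A_20. The difference was 75.5-fold (log2 fold change -6.24 ± 0.872 (SE), adjusted p = 0.000859 by edgeR) and was called with each library left out. Relatives had 0.945 to 18.1 CPM and DMSO plants 0.961 to 202 CPM. TCH2 (AT5G37770), the calmodulin-like protein CML24, had 14.5, 12.4 and 12 CPM in 1A_14 and 67.1, 33.8 and 38.5 CPM in 1A_20 (log2 fold change -1.84 ± 0.370 (SE), adjusted p = 0.00873 by edgeR), and was not called without 1A_20_5 (-1.47, adjusted p = 0.0445 by edgeR, called in 7 of 19 fits that left out 1 library).

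Among the 24 xyloglucan endotransglucosylase genes (XTH) tested, enzymes that cut and rejoin the xyloglucan of the wall, 3 were called and all were higher in 1A_20. Besides TCH4 these were XTH30 (AT1G32170), with 3.03, 3.06 and 5.58 CPM in 1A_14 against 29.4, 26.6 and 27.1 CPM in 1A_20, and XTH25 (AT5G57550), with 10.8, 9.44 and 25.9 CPM against 97.7, 183 and 80.5 CPM. XTH30 was called with each library left out (log2 fold change -2.83 ± 0.342 (SE), adjusted p = 0.000296 by edgeR), whereas XTH25 was not called without 1A_20_5 (-3.09, adjusted p = 0.013). The 3 called genes were 12.5% of the 24, against 1.08% of all genes in either direction. The median of the 24 was -1.32, and 18 of them had a log2 fold change below 0, as did 9407 of all 19546 genes. This family was examined after the values were seen.

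Further wall and surface genes followed. EXLA1 (AT3G45970), an expansin-like protein, had 5.26, 8.75 and 12.4 CPM in 1A_14 and 259.9, 113 and 144 CPM in 1A_20, above every DMSO plant (2.19 to 70.1 CPM; log2 fold change -4.29 ± 0.617 (SE), adjusted p = 0.00107 by edgeR). EXL3 (AT5G51550), an EXORDIUM-like gene, had 54.1, 32.7 and 70.9 CPM against 479, 425 and 336 CPM (log2 fold change -2.97 ± 0.470 (SE), adjusted p = 0.00196 by edgeR). LRX3 (AT4G13340), a leucine-rich repeat extensin, THE1 (AT5G54380), a receptor kinase that monitors the wall, XT1 (AT3G62720), a xyloglucan xylosyltransferase, and RALFL22 (AT3G05490), a RALF-type peptide signal, had log2 fold changes of -2.67, -2.16, -2.25 and -1.61. These 4 genes were not called without 1A_20_5, at adjusted p of 0.0231, 0.0136, 0.0263 and 0.013 by edgeR.

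In the list of 13 expansin and EXORDIUM genes the 1 called gene was PHI-1, while 5 genes had an unadjusted p below 0.05 with higher values in 1A_14 and 2 with higher values in 1A_20. The shares over all genes were 1.08% called and 15.9% at that p, in either direction. EXORDIUM itself (EXO; AT4G08950) had 4.07, 1.25 and 3.41 CPM in 1A_14 and 309, 109 and 174 CPM in 1A_20, and missed the threshold (log2 fold change -6.09 ± 1.25 (SE), adjusted p = 0.0102 by edgeR). Of 12 brassinosteroid synthesis and inactivation genes 0 were called by edgeR, 3 had an unadjusted p under 0.05, DESeq2 called 1, and the median log2 fold change was -0.27.

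**Figure D3:**
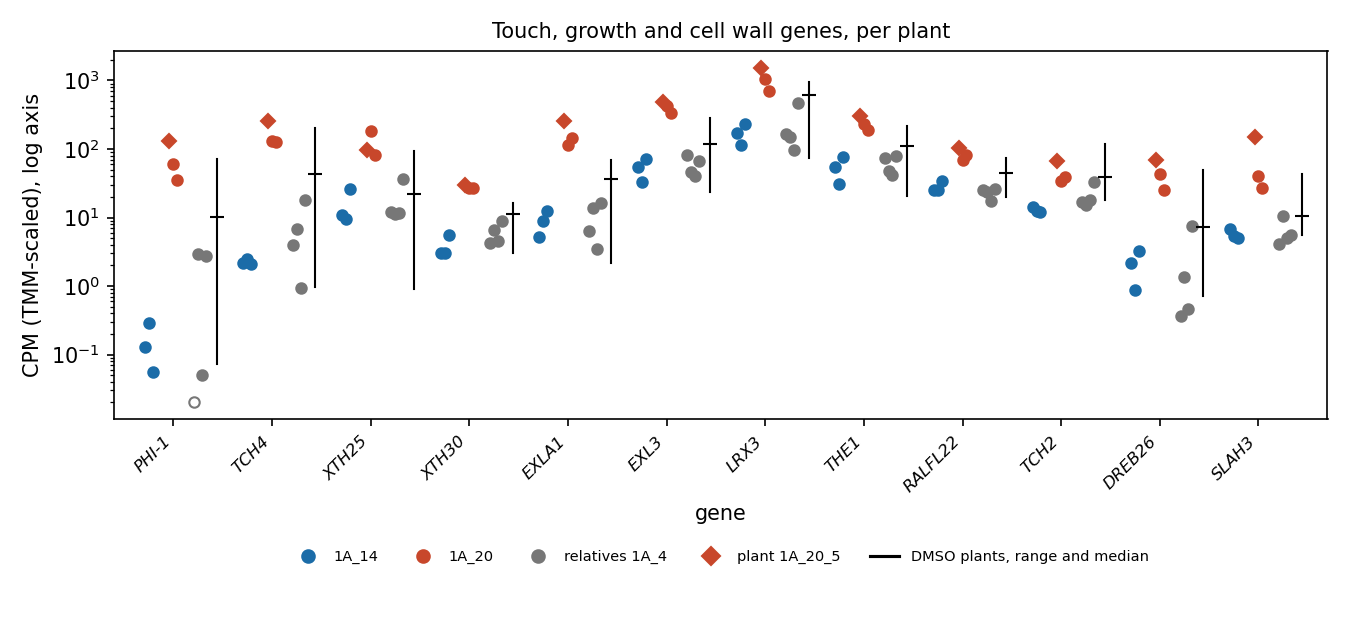
CPM on a log axis (vertical) of 10 touch, growth and cell wall genes and of DREB26 and SLAH3 (horizontal), drawn as in the plot of sugar and energy genes. The plants of 1A_20 lie above those of 1A_14 in all 12, TCH4 at 127 to 256 CPM against 2.13 to 2.47 CPM, while the DMSO range of TCH4 reaches from 0.961 to 202 CPM.

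Other genes with large differences were DREB26 (AT1G21910) and AT1G77640, both AP2/ERF-type transcription factor genes, SLAH3 (AT5G24030), an anion channel of guard cells and roots, PUP18 (AT1G57990), a purine permease family gene, AT1G02610, a RING finger protein, and AT4G16563, an aspartyl protease. SLAH3 had 6.91, 5.30 and 5.01 CPM in 1A_14 and 152, 41.0 and 26.8 CPM in 1A_20, with 1A_20_5 far above the other two, and a log2 fold change of -3.67 ± 0.589 (SE, adjusted p = 0.00215), or -2.56 without 1A_20_5 (adjusted p = 0.00599, both by edgeR). AT1G02610 had 0.714, 1.86 and 1.78 CPM against 14.4, 19.1 and 23.7 CPM (log2 fold change -3.71 ± 0.532 (SE), adjusted p = 0.00105 by edgeR) and was called with each library left out. DREB26, AT1G77640 and AT4G16563, at log2 fold changes of -4.45, -5.25 and -3.65, were not called without 1A_20_5 (adjusted p = 0.0267, 0.0237 and 0.0162 by edgeR) and were called in 6, 5 and 16 of the 19 fits that left out 1 library, whereas PUP18, at -3.45, was (adjusted p = 0.00923).

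In the opposite direction, the phosphate starvation genes SPX1 and PAP17 were higher in 1A_14. SPX1 (AT5G20150), a sensor protein that restrains the phosphate starvation response and is itself induced by it, had 8.25, 39.3 and 12 CPM in 1A_14 and 2.1, 2.16 and 1.91 CPM in 1A_20. PAP17 (AT3G17790), a purple acid phosphatase, had 15.2, 65.0 and 19.4 CPM against 3.13, 4.03 and 4.42 CPM. The families did not overlap for either gene, and 1A_14_25 was the highest plant for both.

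The log2 fold changes were 3.27 ± 0.552 (SE, adjusted p = 0.00286 by edgeR) for SPX1 and 3.10 ± 0.520 (SE, adjusted p = 0.00277) for PAP17. Both calls were lost without 1A_14_25 and without any 1 plant of 1A_20, at adjusted p of up to 0.0191 and 0.0194 by edgeR. Relatives had 15.6 to 33 CPM of SPX1 and 37.0 to 56.8 CPM of PAP17, all above 1A_20. DMSO plants ranged more widely, from 3.105 to 84.28 CPM of SPX1 and from 4.469 to 209.6 CPM of PAP17. Their line C13, at means of 3.536 and 4.795 CPM, lay close to 1A_20. Of 11 phosphate starvation genes tested, 2 were called and 8 had an unadjusted p below 0.05, all higher in 1A_14, against 1.08% and 15.9% of all genes in either direction. Without 1A_20_5, edgeR called 0 of the 11. The median log2 fold change was 2.17, and 0.95 without 1A_14_25. SPX1 was also the 1 called gene of SPX1 to SPX4, whose median was 0.10. SPX4 (AT5G15330) had the opposite sign and was called as higher in 1A_20 only without 1A_20_5 (-1.17, adjusted p = 0.00624 by edgeR). The median of the 11 genes in 1A_14 against relatives was -0.38 and that of 1A_20 against relatives -1.89.

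G3Pp1 (AT3G47420), a glycerol-3-phosphate transporter family gene induced by low phosphate, had 5.39, 38.5 and 14.5 CPM in 1A_14 and 1.11, 1.39 and 1.81 CPM in 1A_20 (log2 fold change 3.75 ± 0.743 (SE), adjusted p = 0.00799, and 0.0453 without 1A_20_5, by edgeR, called in 7 of 19 fits that left out 1 library). DGD1 (AT3G11670), which makes the galactolipid DGDG of chloroplast membranes, was the steadier difference, with 51.6, 81.1 and 73.2 CPM in 1A_14 and 30.2, 30.6 and 25.7 CPM in 1A_20. It stayed called through every omission (log2 fold change 1.25 ± 0.162 (SE), adjusted p = 0.000498 by edgeR), and relatives, at 73.6 to 80.4 CPM, lay with 1A_14.

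DREB1A (CBF3; AT4G25480, chromosome 4, 13018010 to 13019400 in TAIR10.1), an AP2 factor that switches on cold acclimation genes, had the largest fold change among the named genes called as higher in 1A_14. It had 6.67, 17.2 and 8.69 CPM in 1A_14 and 0.152, 0.535 and 0.988 CPM in 1A_20, with relatives at 3.14 to 9.60 CPM. DMSO plants ranged from 0.189 to 8.60 CPM, with a mean of 0.263 CPM in line C13, so that low levels also occurred in controls. The difference between the families was 19.1-fold (log2 fold change 4.26 ± 0.635 (SE), adjusted p = 0.00143 by edgeR) and held whichever library was omitted. DREB1A was not called with the 6 dwarf plants alone (adjusted p = 0.0183) or with line 1A alone (adjusted p = 0.0113, both by edgeR). In the list of 17 rapid cold and touch genes it was 1 of 3 called genes, and the other two, TCH4 and TCH2, were higher in 1A_20, with a list median of -0.11.

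Some clock and light genes were called as well. FKF1 (AT1G68050), a blue light receptor of the F-box type that times flowering, had 79.4, 132 and 101 CPM in 1A_14 and 25.9, 33.4 and 39.9 CPM in 1A_20 (log2 fold change 1.66 ± 0.291 (SE), adjusted p = 0.00376, and 0.0249 without 1A_20_5, by edgeR). CDF3 (AT3G47500), a DOF factor of the same photoperiod pathway, had 20.3, 43.7 and 38.0 CPM against 3.54, 7.61 and 7.86 CPM (log2 fold change 2.42 ± 0.375 (SE), adjusted p = 0.00174 by edgeR), and it was not called without 1A_14_25.

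FKF1 was the 1 called gene of 16 clock genes, of which 9 had an unadjusted p below 0.05 with higher values in 1A_14 and 1 with higher values in 1A_20, against 15.9% of all genes in either direction. The list's median was 0.79, and 0.66 without 1A_20_5. Without that plant the 1 called clock gene was RVE1 (log2 fold change -2.23, adjusted p = 0.00531 by edgeR), which was higher in 1A_20. Chosen after the values were seen, GI (AT1G22770), the partner of FKF1, had 63.1, 126 and 104 CPM in 1A_14 and 29.4, 45.4 and 29.5 CPM in 1A_20 (log2 fold change 1.49 ± 0.307 (SE), adjusted p = 0.0102 by edgeR), and RVE1 (AT5G17300), a MYB-like clock output factor, had 1.13, 1.19 and 1.69 CPM against 1.94, 4.91 and 7.66 CPM (log2 fold change -1.86 ± 0.431 (SE), adjusted p = 0.0209). The labels give no hour of harvest, and the part of the time of day in these and the other differences was not tested.

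Among light signalling genes, TZP (AT5G43630), a zinc finger protein of light-dependent growth, had 18, 24.5 and 23.57 CPM in 1A_14 and 6.62, 7.10 and 6.81 CPM in 1A_20, and was called with each library left out (log2 fold change 1.68 ± 0.193 (SE), adjusted p = 0.000213 by edgeR). HYH (AT3G17609), the close homologue of the light regulator HY5, had 2.25, 2.70 and 1.87 CPM against 0.505, 0.705 and 0.638 CPM (log2 fold change 1.88 ± 0.294 (SE), adjusted p = 0.0018, and 0.0103 without 1A_20_5, by edgeR). Of 27 B-box zinc finger genes (BBX) tested, a family of light and clock cofactors examined after the values were seen, STO (BBX24) and BBX16 were called at log2 fold changes of 1.23 and 1.89, 13 had an unadjusted p below 0.05 with higher values in 1A_14 and 4 with higher values in 1A_20. Over all genes 1.08% were called and 15.9% had an unadjusted p below 0.05, in either direction. Without 1A_20_5 neither STO nor BBX16 was called (adjusted p = 0.0174 and 0.0396 by edgeR), and they were called in 16 and 7 of the 19 fits that left out 1 library.

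The genes higher in 1A_14 also held 3 that act in the synthesis of indole glucosinolates, defence compounds made from tryptophan. MYB34 (AT5G60890), a regulator of that synthesis, had 16.8, 18.23 and 15.3 CPM in 1A_14 and 4.24, 2.79 and 5.95 CPM in 1A_20 (log2 fold change 1.95 ± 0.348 (SE), adjusted p = 0.00409, and 0.0214 without 1A_20_5, by edgeR). CYP79B2 (AT4G39950), which makes the first intermediate, had 87.0, 95.0 and 114 CPM against 59.6, 34.6 and 35.1 CPM (1.19 ± 0.233 (SE), adjusted p = 0.00724), and SOT16 (AT1G74100), the final sulfotransferase, differed by 1.05 ± 0.192 (SE, adjusted p = 0.005 by edgeR). These 3 were noticed among the called genes, and the other genes of that synthesis were not counted. Of 11 aliphatic glucosinolate genes 0 were called by edgeR, 5 had an unadjusted p below 0.05, all higher in 1A_14, DESeq2 called 1, and the median was 0.81.

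The remaining genes with the largest differences were CIPK5 (AT5G10930), a kinase of calcium signalling, AT3G04140, an ankyrin repeat protein, AT2G44940, an AP2/ERF-type factor, AT4G22560, AT4G29110, PDX1L4 (AT2G38210), a homologue of vitamin B6 synthesis enzymes, and AT1G78170. CIPK5 had 10.8, 21.9 and 16.9 CPM in 1A_14 and 2.07, 2.87 and 2.98 CPM in 1A_20 (log2 fold change 2.64 ± 0.320 (SE), adjusted p = 0.000296 by edgeR). CIPK5, AT3G04140 and AT2G44940 were called with each library left out and with the 6 dwarf plants alone. AT4G22560, AT4G29110 and AT1G78170, at log2 fold changes of 2.29, 2.22 and 2.15, were not called without 1A_20_5 (adjusted p = 0.045, 0.0302 and 0.0138 by edgeR) and were called in 5, 15 and 15 of the 19 such fits, whereas PDX1L4, at 2.15, was (adjusted p = 0.00862).

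**Figure D4:**
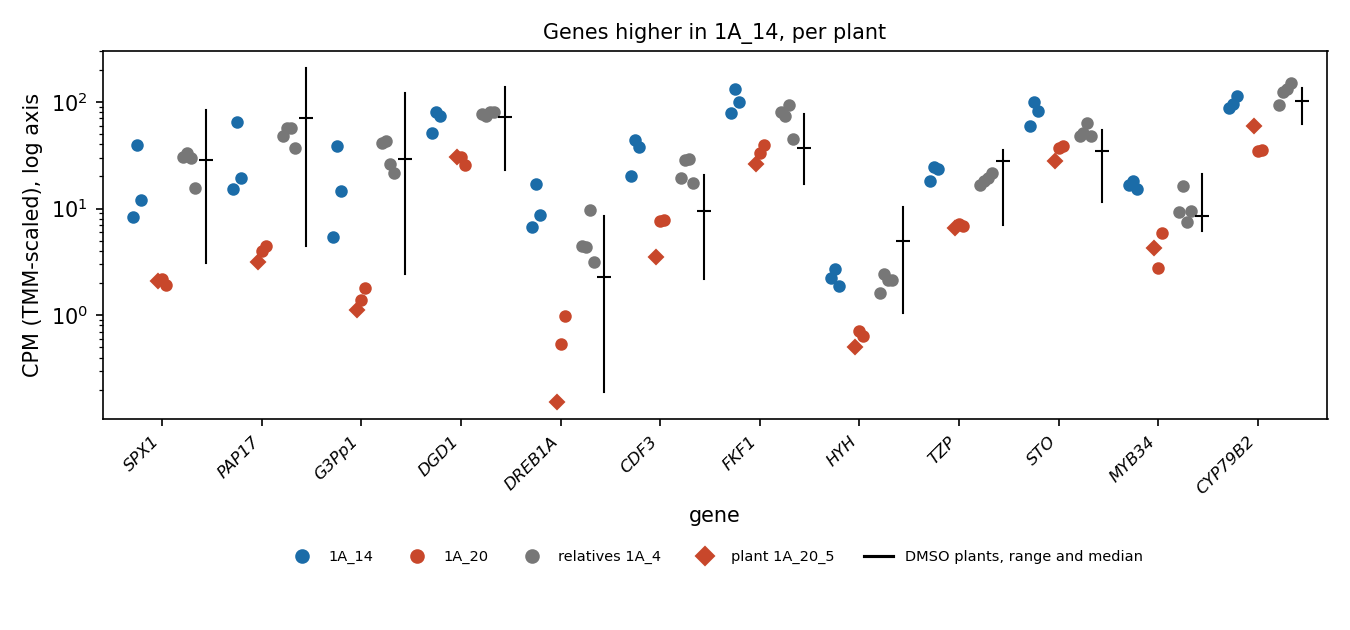
CPM on a log axis (vertical) of 12 genes that were higher in 1A_14 (horizontal), drawn as in the plot of sugar and energy genes. The 3 plants of 1A_14 lie above the 3 of 1A_20 in each, and in SPX1 and PAP17 the relatives, at 15.6 to 33 and 37.0 to 56.8 CPM, also lie above 1A_20. The DMSO ranges of SPX1 and PAP17 reach down to 3.105 and 4.469 CPM, close to 1A_20.

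Neither AS1 nor the KNOX and boundary genes were called between the families. AS1 (AT2G37630, chromosome 2, 15781232 to 15783480 in TAIR10.1) had 15.9, 20.4 and 14.8 CPM in 1A_14 and 11.3, 8.65 and 10.3 CPM in 1A_20, all below relatives (62.1 to 102 CPM) and DMSO plants (37.0 to 116 CPM). The families did not overlap, but the log2 fold change of 0.76 ± 0.254 (SE) had an adjusted p of 0.117 by edgeR. Against relatives AS1 was lower in each family on its own, by a log2 fold change of -2.28 in 1A_14 (adjusted p = 0.000424) and -3.04 in 1A_20 (adjusted p = 1.2e-05, both by edgeR).

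Of the 6 AS and class I KNOX genes 0 were called between the families by edgeR or DESeq2, with 1 at an unadjusted p below 0.05, and the median log2 fold change moved from 0.50 to -0.07 without 1A_20_5. KNAT1 (AT4G08150) had 14.5, 20.8 and 18.4 CPM in 1A_14 and 0.707, 18.3 and 19 CPM in 1A_20 (log2 fold change 0.49 ± 0.839 (SE), adjusted p = 0.861, and -0.06 with 0.992 without 1A_20_5, by edgeR). STM (AT1G62360), the KNOX gene that defines the shoot meristem, had 6.78, 10.0 and 10.3 CPM against 0, 7.61 and 10.2 CPM. KNAT2 (AT1G70510) had 1.25, 1.47 and 1.93 CPM against 0.0505, 2.24 and 1.63 CPM, and KNAT6 (AT1G23380) had 4.87, 8.06 and 6.58 CPM against 1.54, 9.5 and 12 CPM. AS2 (AT1G65620), the partner of AS1, had 2.88, 3.04 and 2.86 CPM against 0, 2.65 and 3.54 CPM. In all 5 genes 1A_20_5 was the lowest of the 6 plants, while 1A_20_6 and 1A_20_8 lay near the values of 1A_14.

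LOB (AT5G63090), a LATERAL ORGAN BOUNDARIES domain factor, had 28.7, 34.9 and 38.4 CPM in 1A_14 and 0, 37.9 and 38.2 CPM in 1A_20. BOP1 (AT3G57130), a BTB-ankyrin coactivator of leaf base identity, had 4.39, 3.18 and 3.74 CPM against 0, 2.26 and 3.21 CPM, and BOP2 (AT2G41370) had 10.0, 14.6 and 12.7 CPM against 3.79, 14.5 and 11.8 CPM. PTL (AT5G03680), a trihelix growth repressor, had 5.93, 5.67 and 4.84 CPM against 1.59, 4.79 and 4.65 CPM. Over these 4 genes 1A_20_5 was the lowest plant, at 0 counts for LOB and BOP1.

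CUC1 (AT3G15170) and CUC3 (AT1G76420), NAC factors that separate organs, stayed at or below 1.02 CPM in all 6 plants, and LOF1 (AT1G26780) and KNATM (AT1G14760) did not pass the filter on low counts. ATH1 (AT4G32980), a BELL partner of KNOX proteins, had 14.9, 23.8 and 19.6 CPM against 11.3, 16.6 and 14.7 CPM. Of the 8 boundary genes tested 0 were called by edgeR or DESeq2, with 1 at an unadjusted p below 0.05, and the median was 0.51, and 0.27 without 1A_20_5. KAN2 (AT1G32240), a GARP factor of the leaf underside, was the 1 called gene of 11 leaf polarity genes, with 12.4, 12.7 and 15.2 CPM in 1A_14 and 4.67, 7.05 and 6.81 CPM in 1A_20 (log2 fold change 1.12 ± 0.227 (SE), adjusted p = 0.00922, and 0.053 without 1A_20_5, by edgeR, called in 3 of 19 fits that left out 1 library).

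**Figure D5:**
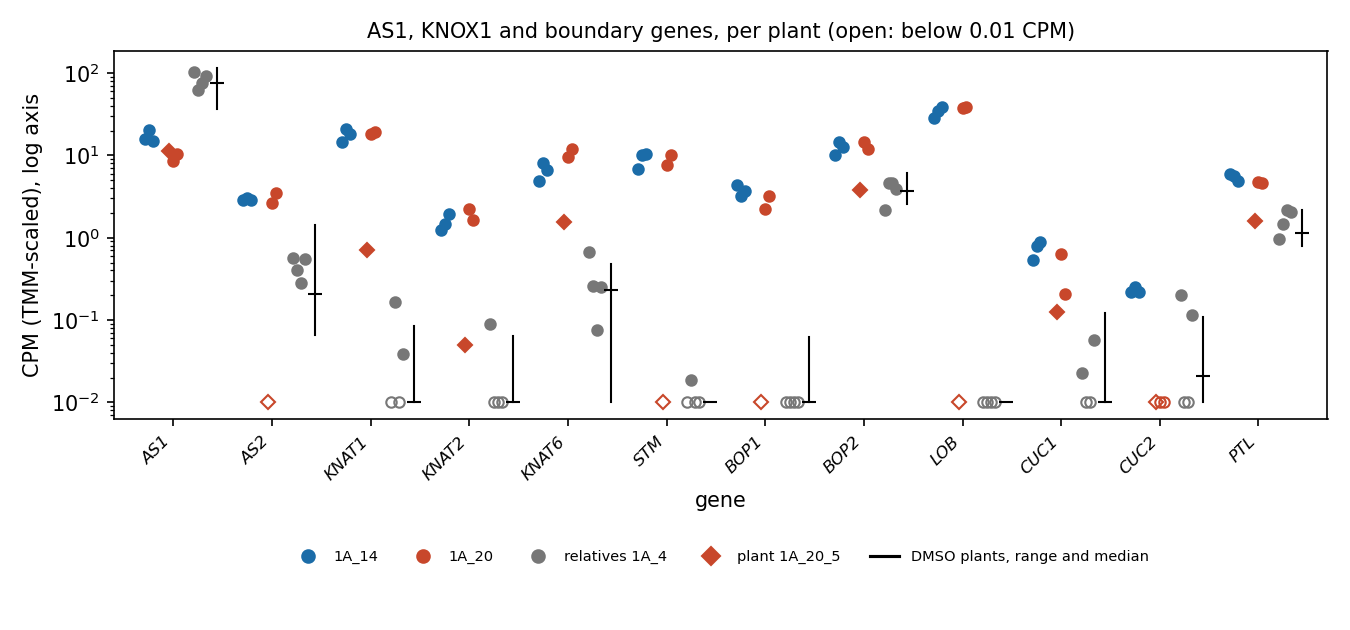
CPM on a log axis (vertical) of AS1, AS2, class I KNOX and boundary genes (horizontal), drawn as in the plot of sugar and energy genes, with values below 0.01 CPM drawn at 0.01 CPM, as open symbols for single plants. Plant 1A_20_5 (diamond) has 0 counts of AS2, STM, BOP1 and LOB, while 1A_20_6 and 1A_20_8 lie near 1A_14 in these genes. In CUC2 every plant of 1A_20 has 0 counts, and in AS1 every plant of 1A_20 lies below those of 1A_14.

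A few genes were near absent in 1 family. CUC2 (AT5G53950), a NAC factor of organ boundaries, had 10, 13 and 12 counts in 1A_14 and 0 in each plant of 1A_20, at least 9.77-fold higher against a limit of 3 counts over the family, but it was not called (adjusted p = 0.12 by edgeR). The 4 relatives had 9, 0, 0 and 6 counts of CUC2, so that plants without a count also occurred outside 1A_20. AT1G58684, a ribosomal protein S5 family gene with near-identical copies among which Salmon may split reads, had 78, 26 and 198 counts in 1A_14 and 0 in 1A_20, and its 4 relatives had 9, 146, 61 and 0 counts, so that its level is uncertain. RBL7 (AT4G23070), a rhomboid-like protease gene, had 0 counts in 1A_14 and 35, 10 and 14 counts in 1A_20, at least 23.9-fold higher, and was not called (adjusted p = 0.0236 by edgeR).

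The chromosome 2 inversion spans the genes from AT2G33720 to AT2G37630. Of 316 tested, 3 were called, all higher in 1A_20, or 0.949% against 1.08% of all genes, and the median log2 fold change was 0.03. They were AT2G34510, a DUF642 protein gene, AT2G36410 and AT2G37540, at log2 fold changes of -2.54, -1.23 and -1.23, and none of the 3 was called without 1A_20_5 (adjusted p = 0.031, 0.026 and 0.0105 by edgeR). By chromosome the share called ran from 0.877% on chromosome 4 to 1.26% on chromosome 2.

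Each family was also compared with the relatives. There, 18 genes were called in 1A_14 (0.0921% of genes tested), 11 higher and 7 lower, and 427 in 1A_20 (2.18%), 287 higher and 140 lower, and 12 genes were called in both. These comparisons share the relatives, and each of them shares a family with the comparison of 1A_14 and 1A_20. Without 1A_20_5 the number was 112 for 1A_14 and 479 for 1A_20, although neither 1A_14 nor the relatives lost a plant. All groups share 1 estimate of the spread. Of the 150 genes higher in 1A_20, the mean of 1A_20 on the log2(CPM + 1) scale lay farther from relatives than that of 1A_14 in 137 (91.3%), against 55.9% of all genes tested, and of the 61 genes higher in 1A_14 in 56 (91.8%). From the DMSO plants 1A_20 lay farther in 111 of the 150 (74%) and 46 of the 61 (75.4%), against 55% of all genes. All 3 plants of 1A_20 lay outside the range of relatives in 136 of the 150 genes, and all 3 of 1A_14 in 30, against 3357 and 2590 of all 19546 genes. The range of the DMSO plants was wider. The plants of 1A_20 lay outside it, all above or all below, in 56 of the 150 and in 24 of the 61, and those of 1A_14 in 21 and 10. Over all genes the numbers were 1858 for 1A_20 and 1866 for 1A_14. The 150 and the 61 genes were selected for a difference between the families in these same values. That raises the share in which a family lies far from controls, so that all genes tested are not a like baseline.

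Other lists showed no called gene between the families in edgeR's test. Of 8 heat shock genes 3 had an unadjusted p under 0.05, DESeq2 called 1, with a median of 1.08, and 0.81 without 1A_20_5. Among them the heat shock factor HSFA2 (AT2G26150), chosen after the values were seen, had 4.00, 4.48 and 1.08 CPM in 1A_14 and 0.253, 0.535 and 0.206 CPM in 1A_20 (log2 fold change 3.27 ± 0.692 (SE), adjusted p = 0.012 by edgeR). No call by either tool and 0 unadjusted p under 0.05 were found among 25 photosystem and antenna genes, although 23 had a log2 fold change below 0, with a median of -0.24. The 11 auxin response genes had a median of -0.39 with 3 at an unadjusted p below 0.05, DESeq2 called 1, and without 1A_20_5 edgeR called 1 as higher in 1A_20. The 12 DNA damage and 17 cell cycle genes had 0 unadjusted p under 0.05 and 0 DESeq2 calls, with medians of 0.00 and 0.37. Class II KNOX and BELL (9 tested), gibberellin oxidase (8), type-A response regulator (8), salicylate (14), jasmonate (17), hypoxia (9), flavonoid (13), senescence (10), CRK and CSLG (8) and flowering time (15) genes had 0 to 4 members at an unadjusted p below 0.05 and medians of -0.25 to 0.72, and DESeq2 called 1 in the first list and 0 in the others.

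Markers of other organs gave the leaf label of the libraries a check. Of 9 root markers 0 passed the filter on low counts, and the 5 leaf markers summed to 45280 to 59850 CPM in 1A_14 and 48730 to 59290 CPM in 1A_20. The 11 floral organ markers summed to 9.08 to 13.9 CPM in 1A_14, 6.09 to 10.9 CPM in 1A_20 and 5.40 to 7.38 CPM in relatives. Of the 6 tapetum and pollen markers 3 were at 0 in all 6 plants, and the meristem markers WUS and CLV3 were at 0 in all 6. The other meristem marker, CLV1, was expressed, at 85 to 121.3 CPM in 1A_14 and 55.4 to 79.3 CPM in 1A_20. Its log2 fold change was 0.69, and relatives ranged from 54.0 to 88.0 CPM over the 3 meristem markers. Of the 13 floral, tapetum, meristem and leaf markers that passed the filter neither edgeR nor DESeq2 called any (0). CLV1 was the 1 with an unadjusted p under 0.05 by edgeR. Reads of organelle genes took 0.554% to 0.575% of counts in 1A_14 and 0.634% to 0.859% in 1A_20, and the part of this difference in the results was not tested.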

How the data were processed

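Leaf mRNA of single plants was sequenced from stranded poly(A) libraries. The authors trimmed reads with Trim Galore and obtained estimated counts with Salmon from Araport11 transcripts, using Col-CEN v1.2 for decoys, and deposited these expected counts per gene without normalization. The 9.27% of values that were not whole were rounded. The deposited tables of the authors' own comparisons (DESeq2 fold changes and p-values) were not used. Of 27501 gene identifiers, 27391 were found in TAIR10.1, and 10372 had a symbol there.

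Groups came from the sample labels. The fit held 19 libraries in 6 groups (1A_14, 1A_20, relatives 1A_4 and the 3 DMSO lines), and all 9 DMSO plants were kept. The authors removed outlier libraries that the sources used here do not name, so none was removed for that reason. Testing covered genes that reached 10 normalized counts in 4 or more libraries and was done with edgeR 4.0.16 (R 4.3.3, glmQLFit, TMM, prior count 0.125, Benjamini-Hochberg). Calls required an adjusted p under 0.01 together with a change of over 1 on the log2 scale. Fold changes are of 1A_14 over 1A_20. The SE divides the unshrunk log2 fold change by the root of F, so it restates the test. Limits of 3 counts cover counting error only. DESeq2 1.42.0, limma-voom (limma 3.58.1), other scalings, filters, groupings and each library left out were the alternatives. The test was run on simulated data with 19546 genes. Plots used matplotlib 3.10.9 and tables pandas 2.3.3 in Python 3.11.15.

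Of 343 members of 29 lists, 337 paired by identifier and symbol. The named genes are up to 12 per direction with the largest fold change among called, non-overlapping genes with at least 1 CPM in the higher family, all AS, KNOX and boundary genes, up to 3 called members per direction of other lists, and up to 6 per direction near absent in 1 family. The families, lists and tests were chosen with earlier results of these data known, and genes or families said to be chosen after the values were seen lie outside that rule. The plants of a family share 1 parent, so p-values measure the spread between sib plants.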

Additional observations from a re-analysis of the deposited data

Results flagged for a closer look

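The difference from relatives was not the same in both dwarf families for 211 genes by edgeR's contrast of 1A_14 and 1A_20, which tests that difference itself (0 genes with the DMSO plants as 1 group).

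Among the 4 relatives, a plant lay far from the other three in 10 of 47 sets of values examined, and chance alone flags about 1 in 20 independent sets. The 47 sets share the same 4 plants, so that the number cannot be read against that rate. For STM, CUC3, RBL7 and KNAT2 the other three relatives had no count, and the value of RBL7 is 2 counts. Relative 1A_4_22 was the high plant for AT1G77640 (4.70 CPM), DREB26 (7.55 CPM), DIN10 (159.5 CPM), ATH1 (25.5 CPM), TCH2 (32.9 CPM) and RBL7 (0.0383 CPM). Relative 1A_4_11 was the high plant for AT1G78170 (13.6 CPM) and KNAT2 (0.0905 CPM). Relative 1A_4_16 was the high plant for STM (0.0186 CPM) and CUC3 (0.0558 CPM).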

How the results depend on the processing

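Between the families edgeR called 211 genes as reported, and DESeq2 470, the 6 dwarf plants alone 68, line 1A alone 82, all 53 libraries 70, the DMSO plants as 1 group 0 (2138 at an unadjusted p below 0.05) and an adjusted p below 0.05 at any fold 760. For 1A_14 against relatives the 18 genes became 263, 2 (line 1A alone), 44, 6 and 202 under the same settings, and for 1A_20 against relatives the 427 became 841, 229 (line 1A alone), 91 (DMSO plants as 1 group) and 1703. In the pooled DMSO fit differences between DMSO lines count as spread, and a looser threshold adds genes by construction, whereas for the other settings the cause was not tested. With 1 library left out the 3 numbers ran from 56 to 281, from 3 to 112 and from 209 to 495. The 281 and the 495 came without DMSO C13 replicate 2. In all alternatives the 211 genes kept their direction, and limma-voom, median-ratio scaling, robust estimation and other filters called 198 to 218. The 211 were selected for their difference in these same plants, so that their direction could hardly change.

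Over the genes named by the rule, 1122 alternative values stayed on the same side of the threshold (called or not called), 229 lost the call and 2 gained it. The 9 that changed sign belonged to genes that were not called. KNAT6 was 0.12 by limma-voom. With 1 library left out the log2 fold change ran from -0.72 to 0.24 for KNAT6, -0.46 to 2.27 for CUC3, -0.074 to 1.15 for AS2, -0.058 to 0.91 for KNAT1, -0.31 to 0.89 for KNAT2, -0.073 to 0.68 for BOP2 and -0.16 to 0.85 for LOB. The lowest value came without 1A_20 replicate 4 (plant 1A_20_5), except for CUC3, which was -0.19 there and lowest without 1A_14 replicate 1. List medians moved by less than the spread within families in 826 of these cases and by more in 44. No paired analysis was possible because the families carry replicate numbers 1 to 3 and 4 to 6 and share none.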
